A study of Mus musculus with 16 samples.

Results

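The alternative complement pathway of the mouse hippocampus was followed through 8 genes chosen by name. They are the pathway's components C3, Cfb (factor B), Cfp (properdin) and Cfi (factor I), the receptors C3ar1 and C5ar1, and the membrane regulators Cd55 and Cd59a. All 8 have a row among the 19449 genes of the deposited count table, and 7 passed the filter on low counts that left 16269 genes for testing. Cfi did not pass it. The 16 libraries hold hippocampal RNA from mice labelled 3 months old, 4 libraries in each of 4 groups. The groups are Tspo knockout (KO) mice injected with lipopolysaccharide (LPS), KO mice injected with PBS, wild-type (WT) mice injected with LPS, and WT mice injected with PBS. Tspo encodes the translocator protein of the outer mitochondrial membrane, LPS is a component of bacterial outer membranes that triggers inflammation through TLR4, and PBS is the vehicle. The labels give no dose of LPS, no time after injection, no strain and no description of the deleted allele. Nothing says that the libraries of a group come from separate animals, so the p-values measure only the spread between these libraries, which may be technical.

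Complement is a cascade of plasma and tissue proteins that tags surfaces for uptake by phagocytes. In its alternative branch, activated C3 binds factor B, and a protease cleaves the bound factor B to make an enzyme that cleaves more C3, so that the branch amplifies itself. Properdin holds that enzyme together, factor I cuts activated C3 into inactive forms, and CD55 takes the enzyme apart. CD59 blocks the membrane pore at the end of the cascade, and the small fragments C3a and C5a act on receptors encoded by C3ar1 and C5ar1. In the brain, astrocytes are a known source of C3 in inflammation, and microglia carry both receptors.

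The sequences around the start sites are given for C3, C3ar1 and C5ar1, whose transcripts were higher in the LPS libraries of WT mice, and for Cfp, which did not pass that test. Each is the RefSeq window on GRCm38.p6 from 250 bases before to 50 bases after the gene's RefSeq start, read along the gene's strand, and 6 of the 8 genes had an entry. C3 lies at chr17:57228087-57228386 on the minus strand, C3ar1 at chr6:122856108-122856407 on the minus strand, C5ar1 at chr7:16259289-16259588 on the minus strand, and Cfp at chrX:20931506-20931805 on the minus strand. Capitals mark matches on either strand to 6 letter patterns named for the factor or element they stand for: NF-kappaB (GGG and CC with 5 bases between), C/EBP TTGCNNAA, the interferon-stimulated response element (GAAA and GAAA with 2 bases between), the interferon gamma activated site TTCNNNGAA, the PU.1 core GAGGAA and the TATA box TATAAA.
C3: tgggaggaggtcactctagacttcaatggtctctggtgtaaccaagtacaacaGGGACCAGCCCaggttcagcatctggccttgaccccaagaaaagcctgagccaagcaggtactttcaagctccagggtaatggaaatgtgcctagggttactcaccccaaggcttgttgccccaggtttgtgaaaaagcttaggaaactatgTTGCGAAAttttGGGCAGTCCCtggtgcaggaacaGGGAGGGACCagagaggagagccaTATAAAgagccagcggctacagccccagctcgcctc
C3ar1: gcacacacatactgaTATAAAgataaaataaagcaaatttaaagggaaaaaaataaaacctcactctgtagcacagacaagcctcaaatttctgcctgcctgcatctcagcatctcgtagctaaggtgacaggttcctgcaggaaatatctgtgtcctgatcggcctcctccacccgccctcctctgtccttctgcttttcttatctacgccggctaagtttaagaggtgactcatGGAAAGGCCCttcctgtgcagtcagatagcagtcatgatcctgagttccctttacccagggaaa
C5ar1: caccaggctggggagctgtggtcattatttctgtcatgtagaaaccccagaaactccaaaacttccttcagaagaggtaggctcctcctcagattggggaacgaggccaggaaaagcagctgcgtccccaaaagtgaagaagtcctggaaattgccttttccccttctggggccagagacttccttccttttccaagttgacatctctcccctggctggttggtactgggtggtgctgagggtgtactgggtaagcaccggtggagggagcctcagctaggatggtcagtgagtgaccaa
Cfp: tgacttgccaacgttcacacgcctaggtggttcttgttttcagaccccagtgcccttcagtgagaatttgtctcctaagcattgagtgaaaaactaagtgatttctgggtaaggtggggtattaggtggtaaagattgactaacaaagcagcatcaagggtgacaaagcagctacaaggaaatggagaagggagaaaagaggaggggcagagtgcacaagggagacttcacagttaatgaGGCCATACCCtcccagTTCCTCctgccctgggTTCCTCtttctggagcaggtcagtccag
The C3 window held 4 NF-kappaB matches, the first a pair that overlap each other, 1 C/EBP match and 1 TATA match. Counting from the start site, the NF-kappaB matches begin at -197, -196, -33 and -10 and the C/EBP match at -45, while the TATA match begins at base 15 after it. C3ar1 held 1 NF-kappaB match at -14 and 1 TATA match at -235. None of the 6 patterns was in the C5ar1 window. The RefSeq start of C5ar1, at 16259338, lies 202 bases inside the GENCODE gene, whose start is at 16259540, so that window covers little sequence before the GENCODE start. Cfp held 1 NF-kappaB match at -10 and 2 PU.1 core matches, at bases 7 and 23 after the start. Of the other genes that did not pass with LPS, the Cd55 window, not printed, held 4 NF-kappaB matches, as many as C3, and the Cd59a window 2, with 1 response element and 1 PU.1 core match. Among 32851 promoters of the same length, 50.8% held the NF-kappaB pattern, 10.8% the C/EBP pattern, 28.3% the PU.1 core, 13.6% the TATA box, 8.3% the interferon gamma activated site and 3.44% the response element. The NF-kappaB pattern was therefore as common among promoters at large as not, and a match is a description of letters, not a site.

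The libraries held between 30198619 and 50009041 counts. Neuron, astrocyte and microglia markers were detected in all 16, as a hippocampal sample should show, and values below are in CPM, counts scaled to library size by TMM. Tspo averaged 0.334 ± 0.12 CPM in KO LPS and 8.51 ± 4.06 CPM in WT LPS (SD, n = 4 each), and 0.807 ± 1.02 CPM in KO PBS against 3.09 ± 1.41 CPM in WT PBS. The library labelled KO PBS replicate 1 held 2.32 CPM of Tspo, within the WT PBS range, and so goes against its label; directions drawn from KO PBS include it. WT LPS replicate 1 lay below all other WT LPS libraries for C3, Cfb, C3ar1 and C5ar1, and also for Cd55 and Cd59a. Results are given with and without it. WT LPS replicate 1 and WT PBS replicate 1 had choroid plexus marker sums of 12.9 and 10.4 CPM, against 566 CPM or more in every other library. The sample titles carry codes of unstated meaning: WT LPS replicates 2, 3 and 4 share one with KO PBS replicate 4, WT LPS replicate 1 shares one with WT PBS replicate 4, and WT PBS replicates 1, 2 and 3 share another. No code is shared between genotypes within a treatment or between treatments in the knockout, so code and group cannot be told apart there.

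In WT hippocampus, the transcripts of the C3 convertase, C3 and Cfb, and of both anaphylatoxin receptors, C3ar1 and C5ar1, were higher with LPS than with PBS, while Cfp, Cd55 and Cd59a did not pass. In KO hippocampus none of the 7 passed between LPS and PBS, and under LPS the same 4 genes were lower in KO than in WT. With LPS, 4 of the 7 members tested rose and 0 fell in WT, where 4.72% of all genes tested rose (edgeR quasi-likelihood F test, Benjamini-Hochberg adjusted p under 0.05 over all 16269 genes). The genes were chosen with earlier results of these data known, and the 7 are those that passed the filter. Cfb, with at most 13 counts in any library outside WT LPS, passed it only through its WT LPS libraries. Counts of members here and below therefore only describe these 7. So does their median log2 fold change of 2.23, beside 0 over all genes.

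**Figure D1:**
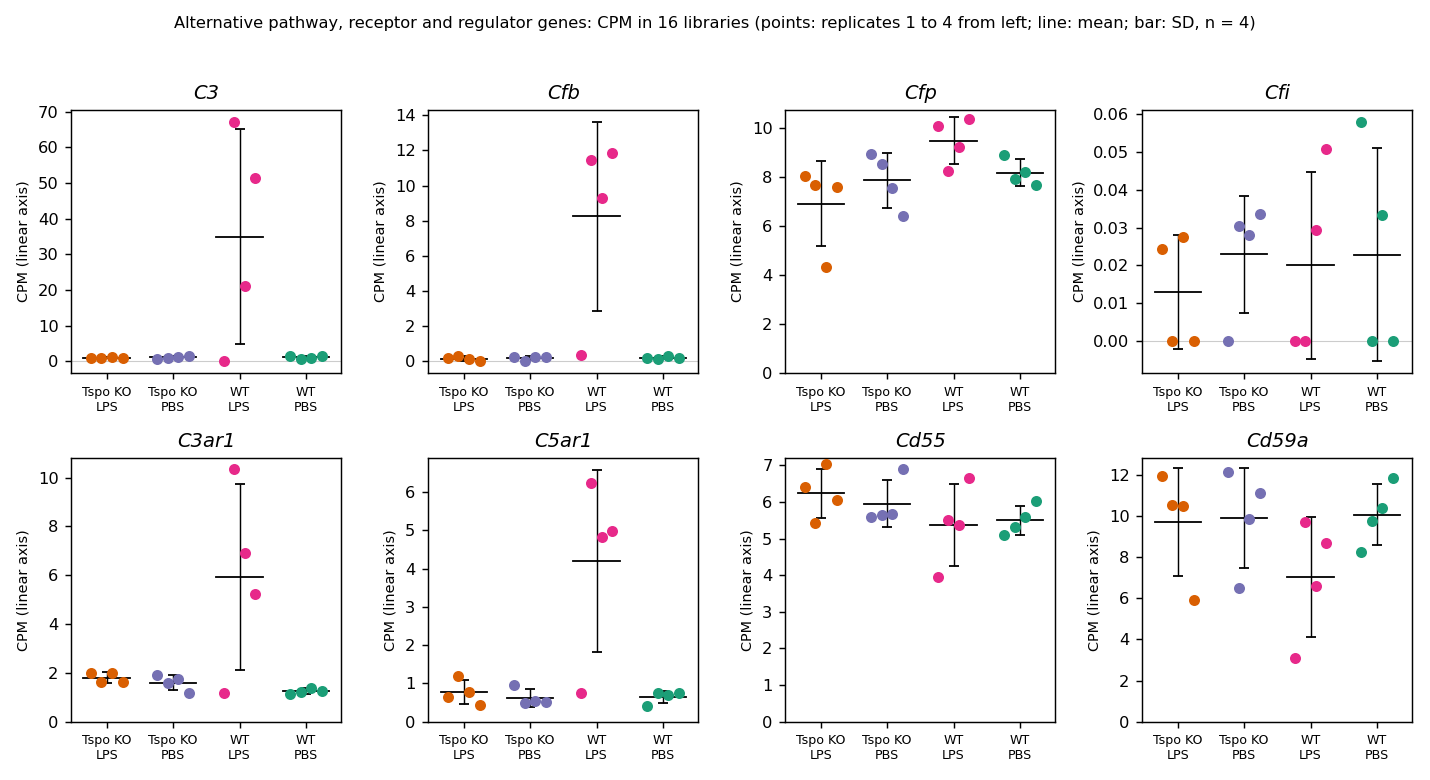
Level of each of the 8 genes in CPM in the 16 libraries, one panel per gene, with the groups KO LPS, KO PBS, WT LPS and WT PBS from left to right. Points are replicates 1 to 4, lines are means and bars are SD. For C3, Cfb, C3ar1 and C5ar1 the 3 high points belong to WT LPS replicates 2, 3 and 4, and WT LPS replicate 1 sits with the other groups or below them.

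C3 encodes the protein on which all branches of complement converge, and lies on the minus strand of chromosome 17 at 57203970 to 57228136 (ENSMUSG00000024164; GRCm38, GENCODE M21). It stood at 0.0305, 67.2, 21.1 and 51.3 CPM in WT LPS replicates 1 to 4, and at 1.45, 0.663, 1.10 and 1.60 CPM in WT PBS replicates 1 to 4. The last 3 WT LPS libraries were far above every PBS library, and replicate 1, with 1 count, was below all of them, so the groups overlapped. The log2 fold change was 4.85 ± 0.97 (SE; adjusted p = 0.0086), a fold of 28.9. Without WT LPS replicate 1 it was 5.26 ± 0.37 (adjusted p = 2.52e-07). C3 was the most variable of the 4 among the 3 high libraries, where its highest level was 3.18 times its lowest.

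Cfb encodes factor B, the protease part of the alternative convertase, and lies on the minus strand of chromosome 17 at 34856374 to 34862518 (ENSMUSG00000090231). It stood at 0.336, 11.5, 9.31 and 11.9 CPM in WT LPS replicates 1 to 4, and at 0.203, 0.151, 0.299 and 0.213 CPM in WT PBS replicates 1 to 4. Every WT LPS library was above every PBS library, replicate 1 by a narrow margin of 11 counts against at most 9. The log2 fold change of 5.24 ± 0.87 (adjusted p = 0.00377) was the largest of the 7 members, a fold of 37.8. Without WT LPS replicate 1 it was 5.64 ± 0.50 (adjusted p = 2.16e-06). Of the 31-base words in Cfb transcripts, 75.5% also occur in Gm20547, an overlapping gene on the same strand with no row in the table, so the counts cannot be assigned to Cfb alone. Within a library, the ratio of C3 to Cfb counts was 0.0909, 5.85, 2.27 and 4.32 in WT LPS replicates 1 to 4, and 7.14, 4.4, 3.67 and 7.5 in WT PBS replicates 1 to 4.

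Properdin, the stabiliser of the convertase, is encoded by Cfp on the minus strand of the X chromosome at 20925454 to 20931555 (ENSMUSG00000001128). It had 10.1, 8.26, 9.25 and 10.4 CPM in WT LPS replicates 1 to 4, against 8.94, 7.93, 8.23 and 7.70 CPM in WT PBS replicates 1 to 4. The groups overlapped and the log2 fold change of 0.21 ± 0.16 did not pass (adjusted p = 0.458). Cfi, which encodes factor I, lies on chromosome 3 at 129835884 to 129875332 on the plus strand (ENSMUSG00000058952). It held 0 to 2 counts per library in all 16, at most 0.058 CPM. A count of 0 allows up to 3 counts, or 0.0600 to 0.101 CPM depending on the library, so no difference in Cfi was detectable at this depth. Such limits cover counting error only.

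C3ar1 encodes the receptor for C3a and lies on the minus strand of chromosome 6 at 122847138 to 122856161 (ENSMUSG00000040552). It stood at 1.19, 10.3, 6.90 and 5.25 CPM in WT LPS replicates 1 to 4, and at 1.131, 1.24, 1.39 and 1.28 CPM in WT PBS replicates 1 to 4. The last 3 WT LPS libraries exceeded every PBS library and replicate 1 lay inside the PBS range. The log2 fold change was 2.23 ± 0.42 (adjusted p = 0.00649), a fold of 4.71, and 2.57 ± 0.22 without WT LPS replicate 1 (adjusted p = 1.53e-06).

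C5ar1 encodes the receptor for C5a, a strong attractant of phagocytes, and lies on the minus strand of chromosome 7 at 16246743 to 16259540 (ENSMUSG00000049130). It stood at 0.763, 6.24, 4.82 and 4.99 CPM in WT LPS replicates 1 to 4, and at 0.406, 0.754, 0.697 and 0.746 CPM in WT PBS replicates 1 to 4. The groups did not overlap, although WT LPS replicate 1 was barely above the highest PBS library. The log2 fold change was 2.69 ± 0.50 (adjusted p = 0.00608), a fold of 6.45, and 3.03 ± 0.32 without WT LPS replicate 1 (adjusted p = 1.1e-05). Cfb and C5ar1 were the 2 of 7 members whose WT LPS libraries all lay above all WT PBS libraries, as held for 4.22% of all genes tested. The ratio of C3ar1 to C5ar1 counts was 1.56, 1.66, 1.43 and 1.05 in WT LPS replicates 1 to 4, and 2.79, 1.64, 2 and 1.71 in WT PBS replicates 1 to 4.

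The membrane regulators did not pass. Cd55, the gene of decay-accelerating factor, on chromosome 1 at 130439027 to 130462744 on the minus strand (ENSMUSG00000026399), stood at 3.94, 5.52, 5.38 and 6.67 CPM in WT LPS replicates 1 to 4, and at 5.11, 5.31, 5.58 and 6.02 CPM in WT PBS replicates 1 to 4. The groups overlapped widely, with a log2 fold change of -0.03 ± 0.14 (adjusted p = 0.921). Cd59a, which encodes the inhibitor of the membrane pore, on chromosome 2 at 104095801 to 104115354 on the plus strand (ENSMUSG00000032679), stood at 3.11, 9.70, 6.61 and 8.67 CPM in WT LPS replicates 1 to 4, and at 8.24, 9.77, 10.4 and 11.9 CPM in WT PBS replicates 1 to 4. Its lowest value was again in WT LPS replicate 1, and the log2 fold change of -0.51 ± 0.29 did not pass (adjusted p = 0.31). Shared 31-base words with other genes came to 13% for Cd55, where Cd55b holds 11.2% and the antisense gene Gm16083 1.54%. For Cd59a they came to 9.39%, where Cd59b alone holds 8.23%. A part of the counts of both genes is therefore uncertain.

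**Figure D2:**
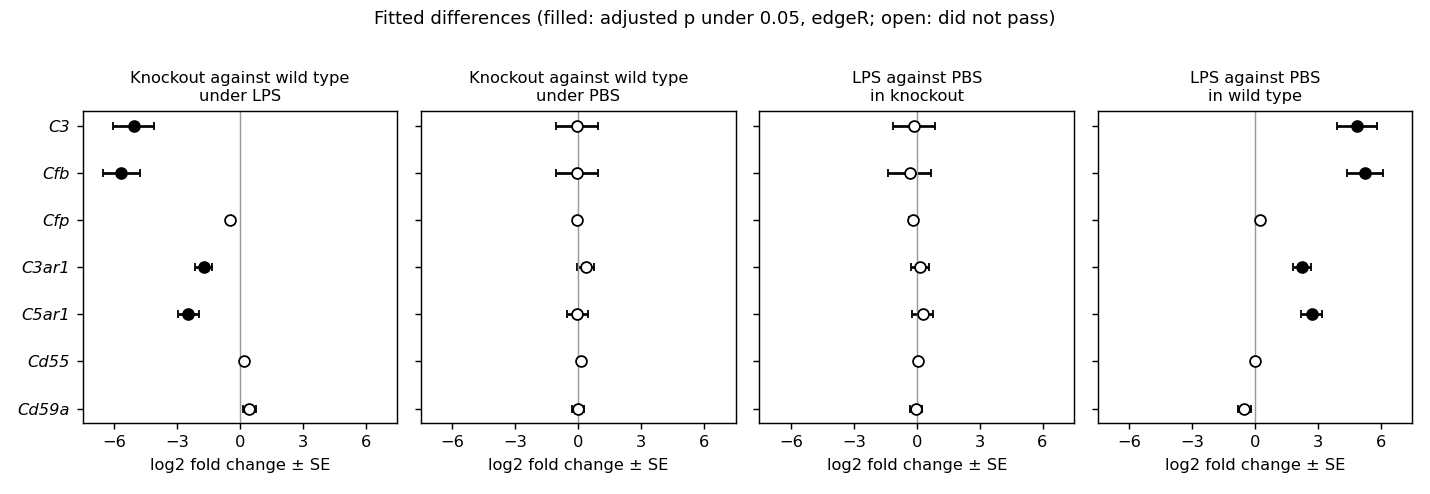
Log2 fold change of the 7 genes tested in 4 comparisons, with bars of 1 SE and filled points where the adjusted p was under 0.05. C3, Cfb, C3ar1 and C5ar1 are filled and positive for LPS against PBS in WT, filled and negative for KO against WT under LPS, and open near 0 in the other comparisons.

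These 4 calls shared their error estimate with the knockout libraries. When only the 8 WT libraries were fitted, the log2 fold changes were unchanged, but none of the 4 passed, with adjusted p of 0.11 for C3, 0.0815 for Cfb, 0.0974 for C3ar1 and 0.0859 for C5ar1, and 0 of all genes did. With limma-voom and sample quality weights, C3 did not pass (4.72 ± 1.73, adjusted p = 0.0526). Within the only title code that holds both treatments of WT mice, WT LPS replicate 1 over WT PBS replicate 4, the ratio of CPM was 0.0191 for C3, 1.58 for Cfb, 0.932 for C3ar1 and 1.02 for C5ar1, from 1 library each. The higher levels thus came from WT LPS replicates 2, 3 and 4. KO PBS replicate 4, which shares their code, had 1.54 CPM of C3, 0.268 of Cfb, 1.17 of C3ar1 and 0.503 of C5ar1. Each was inside the range of the other PBS libraries. That is 1 library, which differs from those WT LPS libraries in both genotype and treatment. It cannot separate code from LPS, and the part of the code was not tested.

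Marker sums of neutrophils and monocytes and of astrocytes were higher in WT LPS replicates 2, 3 and 4 than in all other 13 libraries. Those of neurons, microglia, endothelium, choroid plexus, fibroblasts, lymphocytes and red blood cells overlapped between these sets. The 8 neutrophil and monocyte markers summed to 2.41, 11.6, 10.8 and 16.3 CPM in WT LPS replicates 1 to 4, and to 1.14 to 2.15 CPM in WT PBS, with 0 or 1 markers at 0 in a WT LPS library and up to 2 in a WT PBS library. In KO LPS they summed to 1.26 to 2.74 CPM and in KO PBS to 1.04 to 1.54 CPM. The 6 astrocyte markers summed to 3670, 4560, 4150 and 4420 CPM in WT LPS replicates 1 to 4 and to 3330 to 3770 CPM in WT PBS. The 6 microglia markers summed to 217 to 314 CPM in WT LPS and 215 to 259 CPM in WT PBS, and the 5 lymphocyte markers to at most 0.639 CPM in any library. The part of these cells in the result was not tested, and in bulk RNA more cells of a type and more RNA per cell cannot be told apart.

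The same contrast was read within KO hippocampus. It cannot show whether these transcripts respond to LPS without TSPO, as title code and treatment cannot be told apart there. The main fit called 0 genes between these groups, and KO PBS replicate 1 held Tspo within the WT PBS range. C3 stood at 0.997, 0.8288, 1.29 and 1.07 CPM in KO LPS replicates 1 to 4, and at 0.807, 1.03, 1.29 and 1.54 CPM in KO PBS replicates 1 to 4. Cfb stood at 0.195, 0.317, 0.110 and 0 CPM in KO LPS replicates 1 to 4, where the count of 0 allows up to 0.0894 CPM, and at 0.261, 0.0303, 0.252 and 0.268 CPM in KO PBS replicates 1 to 4. The groups overlapped for both convertase genes, and all 8 C3 values lay within the WT PBS range. C3ar1 stood at 1.99, 1.61, 2 and 1.61 CPM in KO LPS replicates 1 to 4, and at 1.92, 1.58, 1.74 and 1.17 CPM in KO PBS replicates 1 to 4. C5ar1 stood at 0.657, 1.19, 0.768 and 0.447 CPM in KO LPS replicates 1 to 4, and at 0.973, 0.485, 0.532 and 0.503 CPM in KO PBS replicates 1 to 4. The receptors overlapped too. The log2 fold changes were -0.15 ± 1 for C3 (adjusted p = 0.976), -0.34 ± 1.02 for Cfb (0.939), 0.17 ± 0.42 for C3ar1 (0.925) and 0.29 ± 0.50 for C5ar1 (0.889). None of the 7 members passed with edgeR, 0 at an unadjusted p under 0.05, and neither did any of the 16269 genes (0%), of which 1120 had an unadjusted p under 0.05. DESeq2 called 3 genes and no member. The SE of about 1 for C3 and Cfb leaves room for changes in either direction.

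Under LPS, the comparison of KO with WT used the same WT LPS libraries as the comparison within WT, so the 2 share their high values. C3 averaged 1.05 ± 0.191 CPM in KO LPS and 34.9 ± 30.1 CPM in WT LPS (SD, n = 4 each), a log2 fold change of -5.06 ± 0.98 (adjusted p = 0.00618). Cfb averaged 0.155 ± 0.134 CPM in KO LPS and 8.25 ± 5.39 CPM in WT LPS, a log2 fold change of -5.65 ± 0.88 (adjusted p = 0.00308). For Cfb every KO LPS library was below every WT LPS library, while for C3 WT LPS replicate 1 was the lowest of the 8. C3ar1 averaged 1.80 ± 0.224 CPM in KO LPS and 5.92 ± 3.8 CPM in WT LPS, a log2 fold change of -1.72 ± 0.41 (adjusted p = 0.0167). C5ar1 averaged 0.767 ± 0.315 CPM in KO LPS and 4.2 ± 2.38 CPM in WT LPS, a log2 fold change of -2.45 ± 0.49 (adjusted p = 0.00712). The groups overlapped for both receptors through WT LPS replicate 1. With it left out, the log2 fold changes were -5.47 ± 0.37 for C3, -6.04 ± 0.51 for Cfb, -2.05 ± 0.21 for C3ar1 and -2.79 ± 0.31 for C5ar1, and all 4 passed. In that fit 24.3% of all genes were called under LPS.

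Of the 7 members tested, 4 were lower and 0 higher in KO than in WT under LPS, where 7.28% of all genes tested were lower. Their median log2 fold change was -1.72, beside 0 over all genes, and count and median again only describe these 7. C3ar1 did not pass without WT LPS replicate 2 (-1.30, adjusted p = 0.0577). In the fit of only the LPS libraries, Cfb alone of the 4 passed, with adjusted p of 0.0583 for C3, 0.089 for C3ar1 and 0.0567 for C5ar1, and with limma-voom C3 did not pass (-4.65 ± 1.80, adjusted p = 0.0706).

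Cfp had 8.05, 7.70, 4.36 and 7.60 CPM in KO LPS replicates 1 to 4, all below the lowest WT LPS library at 8.26 CPM. Its log2 fold change of -0.45 ± 0.16 did not pass with edgeR (adjusted p = 0.0791) and passed with DESeq2 (adjusted p = 0.044). Under LPS, DESeq2 called 17% of all genes and edgeR 11.9%. Without KO LPS replicate 3, the lowest library, the log2 fold change was -0.29 (adjusted p = 0.151). Cfb and Cfp were the 2 of 7 members with KO LPS wholly below WT LPS, as held for 6.98% of all genes tested. Cd55 had 6.42, 5.44, 7.05 and 6.05 CPM in KO LPS replicates 1 to 4 and Cd59a had 11.9, 10.5, 10.5 and 5.90 CPM. Both overlapped WT LPS, with log2 fold changes of 0.21 ± 0.14 for Cd55 (adjusted p = 0.336) and 0.46 ± 0.29 for Cd59a (adjusted p = 0.323).

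Under PBS, the comparison of KO with WT asks whether the pathway differs in mice given the vehicle. Genotype and title code cannot be told apart there. C3 averaged 1.17 ± 0.319 CPM in KO PBS and 1.20 ± 0.416 CPM in WT PBS (SD, n = 4 each), a log2 fold change of -0.06 ± 0.99 (adjusted p = 0.996). C3ar1 averaged 1.60 ± 0.318 CPM in KO PBS and 1.26 ± 0.109 CPM in WT PBS, a log2 fold change of 0.35 ± 0.42 (adjusted p = 0.929), the largest difference of the 7. None of the 7 passed with edgeR, DESeq2 or limma-voom, and 0.0369% of all genes passed with edgeR. At an unadjusted p under 0.05 with edgeR there were 0 of the 7, beside 5.17% of all genes. All 7 members overlapped between KO PBS and WT PBS, as did all but 3.28% of the genes tested. These values include the library labelled KO PBS replicate 1. Without it, the log2 fold change was 0.09 ± 1.10 for C3 and 0.25 ± 0.47 for C3ar1.

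The genotype by LPS interaction tests the difference between the LPS effects in KO and in WT. It was -5.00 ± 1.36 for C3 (adjusted p = 0.0688), -5.58 ± 1.34 for Cfb (0.0535), -2.07 ± 0.59 for C3ar1 (0.0772) and -2.40 ± 0.70 for C5ar1 (0.0812). No member passed with edgeR, where 1.15% of all genes did, although these 4 had an unadjusted p under 0.05, as did 21.6% of all genes. DESeq2 called all 4, with adjusted p of 0.011 for C3, 0.000484 for Cfb, 0.0156 for C3ar1 and 0.0204 for C5ar1. limma-voom called 3, Cfb, C3ar1 and C5ar1. Over all genes DESeq2 called 7.86% and limma-voom 24.8%. Without WT LPS replicate 1, where edgeR called 16.1% of all genes, it called all 4, at -5.41 ± 0.52 for C3 (adjusted p = 1.58e-05), -5.98 ± 0.79 for Cfb (0.000215), -2.41 ± 0.30 for C3ar1 (0.000129) and -2.74 ± 0.44 for C5ar1 (0.00103). Without WT PBS replicate 4 it called Cfb (adjusted p = 0.0427). The other 3 members stood at -0.40 ± 0.23 for Cfp, 0.10 ± 0.20 for Cd55 and 0.48 ± 0.41 for Cd59a, with adjusted p of 0.325 or more.

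Levels were compared between genes after division by exon length, as CPM per kilobase. In WT PBS, the regulator gene Cd59a (5.56 ± 0.826 CPM per kilobase, SD, n = 4) and Cfp (4.72 ± 0.310) were highest and overlapped each other. Cd55 followed at 1.1 ± 0.081, apart from its neighbours on both sides. C3ar1 (0.293 ± 0.0253), C5ar1 (0.253 ± 0.0642) and C3 (0.234 ± 0.0810) overlapped one another, and Cfb (0.0766 ± 0.0217) lay below them. Cfi was last at 0.0103 ± 0.0127, at the level of single counts. In WT PBS, properdin and the CD59 gene were thus well above C3 and Cfb per length. In WT LPS, C3 stood at 6.79 ± 5.85 CPM per kilobase, with libraries from 0.00594 to 13.1, Cfp at 5.47 ± 0.552, Cd59a at 3.88 ± 1.60 and Cfb at 2.92 ± 1.91. C5ar1 followed at 1.64 ± 0.926, C3ar1 at 1.38 ± 0.883 and Cd55 at 1.11 ± 0.230, and all 7 of these ranges overlapped a neighbour's in that order. Dividing by the longest transcript in place of all exons put Cd55 at 1.76 CPM per kilobase in WT PBS and 1.72 in WT LPS.

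**Figure D3:**
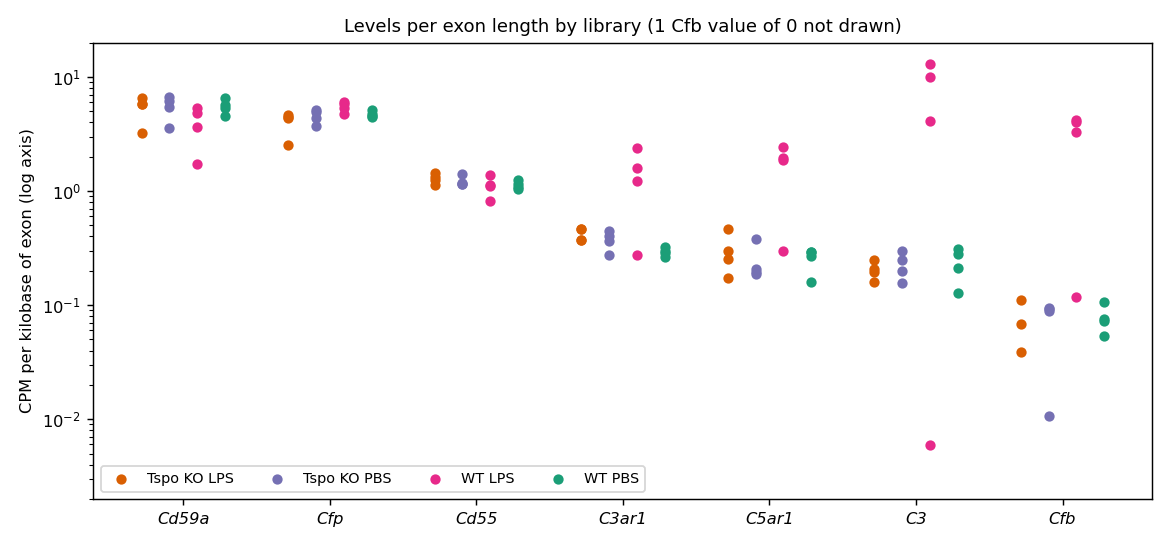
Level of 7 of the genes, all but Cfi, in CPM per kilobase of exon on a log axis, by group, with points for libraries; 1 Cfb value of 0 is not drawn. C3 and Cfb sit below Cd55 in every group other than WT LPS, where 3 of their 4 points are above it.

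The other complement genes were read from a list of the classical, lectin and terminal genes and of further regulators and receptors. Of 39 with a row, 30 were tested. In WT, 10 of the 30 rose with LPS and 0 fell (median log2 fold change 0.26, beside 0 over all genes), against 8.57% of all genes called in either direction. By role, 6 of 11 classical and lectin genes rose, 2 of 4 receptors, 2 of 12 regulators and 0 of 3 terminal genes. The 5 with the smallest p were the C1 protease gene C1ra (2.59 ± 0.45, adjusted p = 0.00454), the C1q chain genes C1qb (1.26 ± 0.23, 0.00559) and C1qa (1.38 ± 0.26, 0.00658), the C1 protease gene C1s1 (1.74 ± 0.33, 0.0068) and Serping1 (1.82 ± 0.37, 0.0097), which encodes the inhibitor of the C1 proteases. In KO, 0 of the 30 passed between LPS and PBS with edgeR, DESeq2 or limma-voom (0 at an unadjusted p under 0.05 with edgeR).

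Under LPS, 10 of the 30 were lower and 0 higher in KO than in WT (median -0.27), against 11.9% of all genes called in either direction. The 5 with the smallest p were C1s1 (-2.05 ± 0.34, adjusted p = 0.00357), C4b (-2 ± 0.37, 0.0053), which encodes the C4 part of the classical convertase, Serping1 (-1.96 ± 0.37, 0.00587), C1qb (-1.20 ± 0.23, 0.00598) and C1qa (-1.36 ± 0.26, 0.00619). C4b averaged 40.6 ± 5.98 CPM in KO LPS and 162 ± 84.9 CPM in WT LPS (SD, n = 4 each). The other complement genes named here had WT LPS replicate 1 apart as well: C4b stood at 38.6 CPM there, inside the KO LPS range, and at 231, 198 and 181 CPM in WT LPS replicates 2 to 4. Without it, the 5 genes named in WT had log2 fold changes of 1.51 (C1qb) to 2.94 (C1ra), and the 5 named under LPS of -2.33 (C1s1) to -1.45 (C1qb), and all passed. That fit called 20.5% of all genes in WT and 24.3% under LPS. In the interaction 0 of the 30 passed with edgeR. At an unadjusted p under 0.05 there were 15 of 30, beside 21.6% of all genes. DESeq2 called 10 of the 30 in the interaction, beside 7.86% of all genes, and limma-voom 13, beside 24.8%. In the fits of only the groups compared, 0 passed in WT between LPS and PBS, as did 0 of all genes, and 2 passed under LPS between the genotypes, beside 2.74% of all genes.

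**Figure D4:**
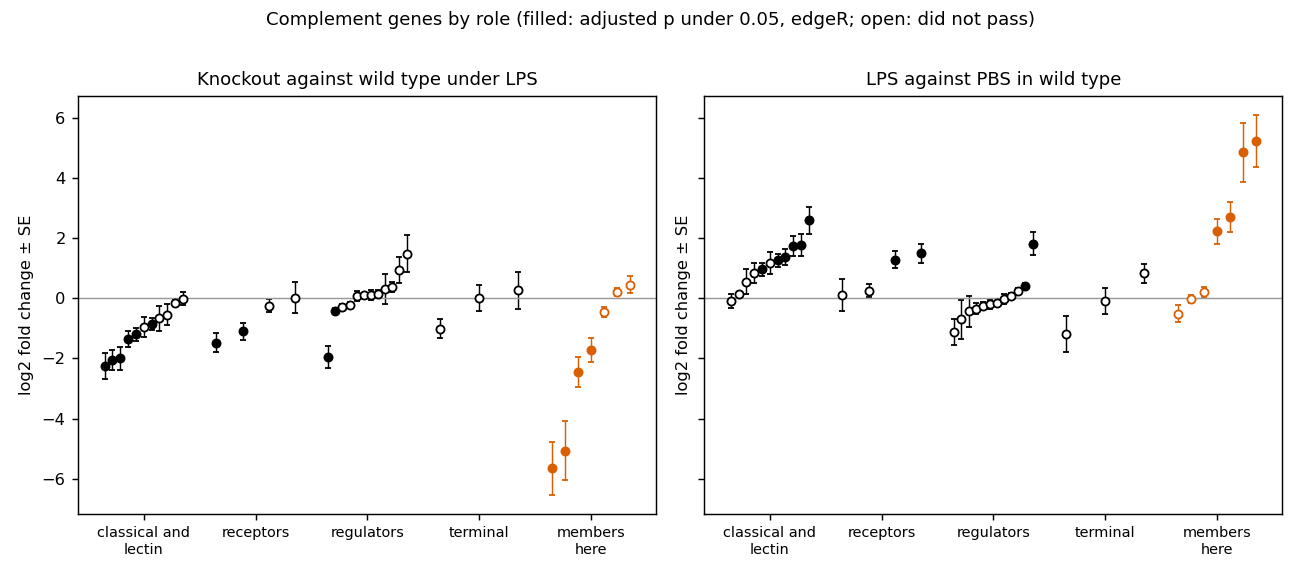
Log2 fold change of the 30 other complement genes tested and of the members, grouped by role, for LPS against PBS in WT and for KO against WT under LPS, with filled points where the adjusted p was under 0.05. Filled points of the classical and lectin genes, the receptors and the regulators are all positive in the first comparison and negative in the second, and no terminal gene is filled.

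The genes whose pattern over the 16 libraries was most like each member were found by the mean absolute difference of log2 CPM centred on each gene's own mean, among genes with a mean log2 CPM of at least 1. For C3 they were Gbp2 (0.721), Gbp4 (0.732) and Serpina3n (0.749), and for Cfb Plin4 (0.675), Gbp4 (0.762) and Irf7 (0.774). The distances for C3 and Cfb were larger than for the other members, whose levels varied less. For C3ar1 they were Sgk3 (0.215), Ncf1 (0.215) and Ugt1a6a (0.23), and for C5ar1 Igtp (0.256), Gbp3 (0.283) and Iigp1 (0.301). Gbp2, Gbp3, Gbp4, Igtp and Iigp1 encode interferon-induced GTPases, and Ncf1 a subunit of the phagocyte oxidase. For Cfp they were Ssh3 (0.088), Carmil3 (0.102) and Acrbp (0.105), for Cd55 Sh3bgrl (0.081), Cul4b (0.086) and Fstl5 (0.089), and for Cd59a Filip1 (0.21), Prorsd1 (0.212) and Eno4 (0.214). With Pearson's correlation as the measure, 1 of the 3 names stayed for Cfp, C3ar1, C5ar1 and Cd55, and 0 for C3, Cfb and Cd59a.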

How the data were processed

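Total RNA from 16 hippocampal libraries was sequenced. Per the labels' protocols, RNA was extracted with a Qiagen RNeasy kit and libraries made with a NEBNext Ultra kit. The deposited table holds whole-number counts per gene and library. Salmon 1.9.0, MultiQC 1.13, DESeq and DESeq2 appear in the submitters' processing notes, with no role given, so the counts may be rounded estimates. The authors' genome build, and whether counting used strand, are not given in the sources used here. Identifiers were given symbols from GENCODE M21 on GRCm38.

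In R 4.3.3 with edgeR 4.0.16, filterByExpr retained 16269 genes, holding 99.97% of the counts. Libraries were scaled by TMM. A quasi-likelihood model with a mean for each of the 4 groups was fitted over all 16 libraries, and p-values were adjusted by Benjamini-Hochberg at 0.05 over all genes tested. The SE was taken as the absolute log2 fold change over the square root of F. Log2 CPM uses a prior count of 2. The biological coefficient of variation was 0.177. The pipeline was tested on simulated data. Alternatives were RLE scaling, DESeq2 1.42.0, limma 3.58.1 (voom), other filters, the replicate number as a block, a fit of only the groups compared, and leaving out libraries.

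Groups and replicate numbers came from the labels. Over 24 same-number pairs of libraries, the correlation of deviations from group means ran from -0.23 to 0.36 and passed 0.1 in 2, so the numbers were not taken to pair samples. The most alike pair of one group, WT PBS replicates 2 and 3, differed by more than sampling noise and was counted as 2. Its chi-square per gene was 3.68, against 11.75 or more in every other pair within a group. Whether the pair comes from 1 animal is not stated and was not tested. With the pair summed, edgeR called 670 genes in WT and 0 in the interaction, against 1394 and 187 in the main fit.

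The members and gene lists were chosen with earlier results of these data known. The members were named by symbol, and of the other complement genes the 5 passing with the smallest p were named in each of 2 comparisons. List genes with no row in the table were not analysed here. 1 further gene of the list is not reported here and is in none of the counts of other complement genes, a choice made after its values were seen.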

Additional observations from a re-analysis of the deposited data

Results flagged for a closer look

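In groups of 4, a library was picked out where its gap to the nearest other library, as a share of the group's range of log2 CPM, passed Dixon's 95% critical value. This held in 7 of 28 groups over the 7 members tested, where chance gives about 1 in 20. Over all 16269 genes tested in the same 4 groups the share was 6.83%, and by group it ran from 5.67% in KO LPS to 8.11% in WT PBS. The members share these 16 libraries, so these values are not independent. In WT LPS, replicate 1 was low for Cfb at 0.336 CPM (gap 0.93 of the range) and for C5ar1 at 0.763 CPM (0.874), the same library that was low for C3 and C3ar1. C5ar1 was also low in WT PBS replicate 1 at 0.406 CPM (0.871), the other library low in choroid plexus markers, and high in the library labelled KO PBS replicate 1 at 0.973 CPM (0.872), the one whose Tspo level goes against its label. Cfb was low in KO PBS replicate 2 at 0.0303 CPM (0.961), which is 1 count. Cfp was low in KO LPS replicate 3 at 4.36 CPM (0.906), and Cd55 was high in KO PBS replicate 4 at 6.91 CPM (0.93). No cause was tested for these values.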

How the results depend on the processing

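The main fit called 1394 genes in WT between LPS and PBS, 0 in KO, 1935 between genotypes under LPS, 6 under PBS and 187 in the interaction. In that order, DESeq2 gave 2096, 3, 2771, 17 and 1278, and voom 4684, a count of 0 again, 4073, 308 and 4029. RLE scaling gave 63 in the interaction, no filter 39 and the CPM filter 42. A replicate block gave 1069 in WT, 1619 under LPS, 3 under PBS and 0 in the interaction, and changed no member's call. Its C5ar1 log2 fold change under PBS was 0.06, and the block's numbers do not pair the libraries. Fitting only the groups compared gave 0 genes, 0 members and 0 other complement genes in WT, and 438, 1 and 2 under LPS. Setting aside WT LPS 1 and KO PBS 1 gave 3271, 3907 and 2400 genes in WT, under LPS and in the interaction. A further 2 alternatives were chosen after seeing the data: summing WT PBS 2 and 3 gave 670 in WT, 1 under PBS and 0 in the interaction, and setting aside the 2 libraries low in choroid plexus gave 3099, 4036 and 2364 in WT, under LPS and in the interaction.

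Members called in the interaction were 4 with DESeq2, 3 with voom, and 4 with either pair of libraries set aside, against 0. Other complement genes called were 16 in WT with voom or with WT LPS 1 and KO PBS 1 set aside, 1 under PBS with voom, and in the interaction 10 with DESeq2, 13 with voom and 11 with either pair set aside. Of all genes, voom called 28.8% in WT and 1.89% under PBS, and setting aside WT LPS 1 and KO PBS 1 gave 19.9% in WT. In the interaction the shares of all genes were 7.86% with DESeq2 and 24.8% with voom. They were 14.6% without WT LPS 1 and KO PBS 1 and 14.3% without the 2 libraries low in choroid plexus. Log2 fold changes that turned sign, none called, were Cd55 in WT (0.08 voom, 0.09 and 0.06 with either pair set aside) and in the interaction (-0.06 voom, -0.05 with WT LPS 1 and KO PBS 1 set aside), C3 under PBS (0.33 voom, 0.09 and 0.03 with either pair set aside), Cd59a under PBS (0.02 voom), and Cd59a in KO (0.09 with WT LPS 1 and KO PBS 1 set aside).

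Leaving out 1 library at a time, genes called ran from 538 to 3380 in WT, 0 to 1 in KO, 858 to 4005 under LPS, 1 to 9 under PBS and 0 to 2655 in the interaction. The low and high ends came without WT LPS 3 and WT LPS 1 in WT and under LPS. Members called stayed at 4 in WT and ran from 3 to 4 under LPS and 0 to 4 in the interaction. Other complement genes called ran from 9 to 16 in WT, 7 to 12 under LPS and 0 to 11 in the interaction. Members that turned sign were uncalled: Cd55 in WT (-0.15 to 0.09) and in the interaction (-0.02 to 0.22), in KO C3 (-0.30 to 0.01), Cfb (-0.93 to 0.03), C5ar1 (-0.01 to 0.60) and Cd59a (-0.18 to 0.15), and under PBS C3 (-0.26 to 0.11), Cfb (-0.23 to 0.27), Cfp (-0.12 to 0.03), C5ar1 (-0.36 to 0.05) and Cd59a (-0.14 to 0.13). The CPM filter (1 or more in 4 libraries) removes Cfb. The cause of these changes was not tested. Low counts limit Cfi and Cfb outside WT LPS.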

Other observations

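WT LPS replicate 1 held 1 count of C3. The exact Poisson 95% upper limit for a count of 1 is 5.57 counts, or 0.17 CPM, and covers counting error only. The lowest of the other 15 libraries held 22 counts, or 0.663 CPM, so the value lay below all others by more than counting error. This library was singled out after its values were seen. Among 14151 genes with at least 0.5 CPM in each of the other 15 libraries, 2 were more than 10 times below the lowest other level in WT LPS replicate 1, C3 and the predicted gene Gm14685. The same search in turn in each of the other 15 libraries found 0 or 1 such gene. WT PBS replicate 1, with a similarly low choroid plexus sum but another treatment, had 1.45 CPM of C3. The cause of the low C3 in WT LPS replicate 1 was not tested. In WT LPS replicate 1, Cfp (10.1 CPM) was within the range of the other WT LPS libraries, while Cd55 (3.94 CPM) and Cd59a (3.11 CPM) were the lowest of all 16 libraries.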
